A study of Mus musculus with 12 samples.

Results

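Hairpins lost or gained while mouse embryonic stem cells self-renewed for 7 days were found by setting 3 Serum/LIF day 7 libraries against 3 Serum/LIF day 0 libraries. The count table lists 3243 shRNA hairpins against 732 gene symbols, with 1 to 10 hairpins a symbol, and 3028 hairpins of 729 symbols had at least 0.5 CPM (a hairpin's counts scaled to the total of its library) in at least 3 of these 6 libraries and were tested. The series holds 12 libraries in 4 groups, the others being 2i GFP- and 2i GFP+ sorted cells. Both groups were unsorted E14 mouse embryonic stem cells, a line grown without feeders, in medium with serum and the cytokine LIF. The cells of both groups carried a UHRF1-GFP transgene, whose promoter the labels do not give, and had been transduced with the TRC lentiviral mouse kinase library and selected with puromycin. Day 0 was collected when the selected and propagated pool was split, and day 7 was the part of the pool kept in Serum/LIF for 7 days, so that hairpins lost during transduction, selection and propagation were lost before day 0 and are outside the comparison. The libraries hold counts of integrated hairpins in genomic DNA. They give no expression values, and neither the identity of the cells nor the knockdown of a target could be checked from them.

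A hairpin of such a library is a short RNA hairpin that the cell trims to a guide strand, and the guide pairs with a messenger RNA and lowers its level. Not every hairpin silences its gene, and a hairpin can also lower other messages that match its seed, the stretch of bases near the guide's 5′ end. In a pooled culture, cells whose hairpin slows division or leads to death or differentiation become rarer, cells whose hairpin speeds growth become more frequent, and a hairpin with no effect on growth keeps its share apart from drift. Self-renewal in Serum/LIF is known to rest on LIF signalling through JAK kinases and on BMP signals from serum, while FGF-ERK signalling and GSK3 activity favour differentiation, and the fast cell cycle of these cells uses the general machinery of DNA replication, mitosis and ribosome production.

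Hairpin sequences were at hand for 4 of the genes, Nags, Sephs2, Csnk2b and Prpsap2, which are here in part for that reason. The guide strands of 3 of them are printed since Csnk2b has the depleted hairpin with the smallest p of all, Prpsap2 has 1 depleted hairpin beside others that were not, and Nags has 1 enriched hairpin. Each is 21 bases, written 5′ to 3′, with the seed, bases 2 to 8, in capitals. The sources do not pair the clone names with the hairpin numbers of the count table, so no sequence is assigned to a value below. Csnk2b, on chromosome 17, encodes the regulatory subunit of casein kinase 2, and its guides were
Csnk2b TRCN0000025054: tTTCCAACatttgtgcgatgc
Csnk2b TRCN0000025055: aAGAATTCattaccacggagc
Csnk2b TRCN0000025056: tTCCAGGTctaagatcatgtc
Csnk2b TRCN0000025057: aTGGATCTtgaaaccatagag
Csnk2b TRCN0000025058: aTGCACCAtgaagagcatgtg
Prpsap2, on chromosome 11, encodes a protein that associates with phosphoribosyl pyrophosphate synthetase, the enzyme at the head of nucleotide synthesis, and its guides were
Prpsap2 TRCN0000075708: tAACTTCTttcatttcagagg
Prpsap2 TRCN0000075709: aATGTCATccacaatgatggc
Prpsap2 TRCN0000075710: tTGCACATcatagaagccagc
Prpsap2 TRCN0000075711: tTTGCACAtcatagaagccag
Prpsap2 TRCN0000075712: tAATGTCAtccacaatgatgg
Nags, on chromosome 11, encodes N-acetylglutamate synthase, a mitochondrial enzyme that makes the activator of the urea cycle, and its guides were
Nags TRCN0000076073: tAAGGTTAccttaggtagagc
Nags TRCN0000076074: aTCTTCTGactgttattccgc
Nags TRCN0000076075: tAGCGGCTgtaatgactgcgg
Nags TRCN0000076076: tTGGCATGattgactagttcg
Nags TRCN0000076077: aTAGATCGagtgcaaccgagg
No seed was shared between hairpins of these genes, but 2 pairs of the Prpsap2 guides, TRCN0000075709 with TRCN0000075712 and TRCN0000075710 with TRCN0000075711, have 20 of 21 bases in common, and so do TRCN0000075759 and TRCN0000075761 of Sephs2. Hairpins of such a pair address the same place in the message and are not separate evidence on the gene.

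The libraries held 3623256 to 4395190 counts at day 0 and 4444780 to 5466825 at day 7, and their scaling factors ran from 1.03 to 1.05 at day 0 and from 0.962 to 0.965 at day 7. The day 0 libraries were less alike than the day 7 libraries, with Spearman correlations over the tested hairpins of 0.875 to 0.889 among day 0 libraries, 0.968 to 0.973 among day 7 libraries and 0.857 to 0.876 between the days, given as a description over hairpins of the same pool. The median standard deviation of log2 CPM among replicates was 0.506 at day 0 and 0.271 at day 7. At day 0, 411 hairpins were missing from 1 or 2 libraries while another day 0 library held at least 100 counts of them, against 25 such hairpins at day 7. Hairpins detected with at least 1 count numbered 2884 ± 37.9 (SD, n = 3) at day 0 and 3019 ± 32.2 (SD, n = 3) at day 7, the libraries of the days did not overlap, and an exact two-sided permutation test gave p = 0.1, the smallest that 3 against 3 libraries allow. The libraries of a group are described as biological replicates, and growth to day 7 as done in triplicate, but how the day 0 libraries were taken from the pool is not described, so that their spread may be technical and the p-values cover only how far these libraries differ.

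Calls were made in edgeR's quasi-likelihood test at a p under 0.05 after Benjamini-Hochberg adjustment over all 3028 hairpins, together with a log2 fold change of day 7 over day 0 under -1 (depleted) or over 1 (enriched). By this rule 121 hairpins in 113 genes were depleted, 4.00% of those tested, and 104 hairpins in 97 genes were enriched, 3.43% of those tested, while 2803 were not called. In all 225 called hairpins the 3 libraries of one day lay apart from the 3 of the other. This was common among hairpins in general. Of all 3028 tested hairpins, called or not, 542 had every day 7 library under every day 0 library, and 626 had the reverse. The depleted hairpins together made up 5.82% of the counts at day 0 and 1.74% at day 7, and the enriched ones 2.44% and 5.76%. The median log2 fold change of the depleted hairpins was -1.81, with 52 under -2, and that of the enriched ones 1.44, with 26 over 2. Over all tested hairpins the median was -0.02 with quartiles of -0.70 and 0.52. The split between the directions depends on the scaling: enriched hairpins were 46.2% of the calls as given and 31.2% (163 depleted, 74 enriched) where libraries were scaled by their total counts alone, which moves the median log2 fold change of all hairpins to -0.12. Without day 7 A, B or C the depleted numbered 57, 68 and 54 and the enriched 38, 41 and 37, while leaving out a day 0 library gave 112 to 135 depleted and 130 to 143 enriched. With all 4 groups of the series in 1 fit, which then share 1 estimate of the spread, 4 hairpins were depleted and 11 enriched.

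Casein kinase 2, a kinase of many substrates in transcription, ribosome production and cell survival, gave the hairpin with the smallest p of the comparison. Hairpin 1932 of Csnk2b, its regulatory subunit, stood at 3084, 2470.1 and 2804 CPM in day 0 A, B and C and 475, 443 and 411 CPM in day 7 A, B and C. Every day 0 library lay far above every day 7 library, with a log2 fold change of -2.65 (SE 0.13, adjusted p = 5.22e-05). Its other 4 hairpins started low, at day 0 means of 48.9 to 81.1 CPM. All 4 were lower at day 7 on average, with log2 fold changes of -5.27 to -0.34, but none passed the test. Of these, hairpin 1931 read 42.9, 102 and 98.1 CPM at day 0 and 11.2, 14.5 and 26.0 CPM at day 7, with an adjusted p of 0.0895, and hairpin 1935 read 30.6, 80.9 and 35.2 CPM at day 0 and 1.64, 2.11 and 0 CPM at day 7, with an adjusted p of 0.0656. Some hairpins against the catalytic subunits were depleted too. Hairpin 2367 of Csnk2a2 read 898, 674 and 891 CPM at day 0 and 171, 195 and 164 CPM at day 7, with a log2 fold change of -2.22 (SE 0.19, adjusted p = 0.000787). It was the only one called of 4 Csnk2a2 hairpins. The most abundant, 2368, rose by 0.45 (SE 0.10, adjusted p = 0.0264), under the fold limit, and 2365 and 2369 changed by -0.27 and -0.86. The sum of Csnk2a2 changed by -0.22 (adjusted p = 0.0814). Of 5 hairpins of Csnk2a1, 2 were depleted. Hairpin 2447 read 242, 507 and 251 CPM at day 0 and 117, 61.9 and 83.5 CPM at day 7, with day 0 B well above the other day 0 libraries, and hairpin 2491 read 207, 174 and 265 CPM at day 0 and 78.3, 64.0 and 119 CPM at day 7. Their log2 fold changes were -1.93 (SE 0.40, adjusted p = 0.0191) and -1.30 (SE 0.36, adjusted p = 0.0492). Hairpin 2447 did not pass without day 7 B or C, with an adjusted p of up to 0.0807, and hairpin 2491 did not without day 0 A or C or day 7 A or B or C, with up to 0.171. Of all 14 hairpins against the 3 subunits, 4 were depleted, none was enriched and 12 had a log2 fold change under 0, with a median of -0.88, a family chosen after its values were seen. Over all tested hairpins 4.00% were depleted, 3.43% were enriched and 1537 of 3028 had a log2 fold change under 0. The change also went with abundance. The 757 tested hairpins with the lowest mean CPM, up to 52.6, had a median log2 fold change of -0.41 (12 depleted, 17 enriched). The next 757, up to 152 CPM, had -0.14 (34 depleted, 5 enriched). The 757 with the highest, from 406 CPM, had 0.20 (26 depleted, 40 enriched). Rare hairpins thus tended to be lower at day 7 in general, and the 14 hairpins were not compared with others of like abundance. In 2i GFP- libraries, whose CPM is scaled over all 12 libraries, hairpin 1932 read 1011, 948 and 923 CPM, and in 2i GFP+ libraries 10545, 9026 and 9662 CPM.

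Casein kinase 1 alpha, which primes beta-catenin for GSK3 and so for destruction, had 3 of its 4 tested hairpins depleted. Hairpin 1231 of Csnk1a1 read 1692, 1235 and 1321 CPM at day 0 and 137, 203 and 255 CPM at day 7, with a log2 fold change of -2.83 (SE 0.25, adjusted p = 0.000787). The lowest day 0 library lay far above the highest day 7 library. Hairpin 1232 read 593, 605 and 395 CPM at day 0 and 167, 199.6 and 167 CPM at day 7. Hairpin 1235 read 853, 719.7 and 356 CPM at day 0 and 152, 115 and 114 CPM at day 7, with day 0 C well under day 0 A. Their log2 fold changes were -1.58 (SE 0.23, adjusted p = 0.0056) and -2.34 (SE 0.34, adjusted p = 0.00525), and all 3 kept the call when any 1 library was left out. The remaining hairpin, 1234, read 268, 377 and 269.6 CPM at day 0 and 192, 133 and 241 CPM at day 7 and did not pass, with a log2 fold change of -0.69 (SE 0.30, adjusted p = 0.166). Among the other members of the family, hairpin 1202 of Csnk1g3, a membrane-bound form, read 943, 866 and 549.9 CPM at day 0 and 105, 104 and 123 CPM at day 7, with a log2 fold change of -2.82 (SE 0.25, adjusted p = 0.000787). The other Csnk1g3 hairpins had log2 fold changes of -0.34 to 0.65 with no call, and the median over all 5 was 0.22. Csnk1g2, a close relative of Csnk1g3, had 2 of 5 hairpins enriched. Hairpin 1212 read 391, 422 and 344 CPM at day 0 and 859.8, 718 and 802 CPM at day 7, with a log2 fold change of 1.04 (SE 0.15, adjusted p = 0.00548). Hairpin 1214 read 29.5, 90.9 and 52.3 CPM at day 0 and 234, 398 and 269 CPM at day 7, with a log2 fold change of 2.38 (SE 0.46, adjusted p = 0.0144). The day 7 libraries lay above the day 0 libraries in both, and a further hairpin, 1213, was higher at day 7 by a log2 fold change of 0.43 (SE 0.11, adjusted p = 0.0442), under the fold limit. Hairpin 1212 fell under the fold limit without day 0 C or day 7 A and with upper quartile or total count scaling, and hairpin 1214 did not pass without day 7 B or C, with an adjusted p of up to 0.0709. In the whole list of GSK3 and casein kinase 1 genes, 33 hairpins of 7 genes were tested, 5 were depleted (15.2%, against 4.00% of all hairpins) and 3 were enriched (9.09%, against 3.43%, with 1 of the 3 kept by the filter only through day 7), with a median log2 fold change of 0.22. The 5 hairpins of Gsk3b, the kinase that 2i medium blocks together with MEK, had a median of -0.62, none was called, and their summed counts changed by a log2 fold change of -0.11 (adjusted p = 0.266).

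The receptor for activated C kinase 1, Rack1 (GNB2L1 in the table), is a scaffold of the small ribosomal subunit, and its hairpins 161 and 162 were depleted. Hairpin 161 read 197, 195 and 154 CPM at day 0 and 7.25, 8.21 and 8.73 CPM at day 7, with a log2 fold change of -4.49 (SE 0.45, adjusted p = 0.00123), which left it at a few CPM in every day 7 library. Hairpin 162 read 87.1, 128 and 85.6 CPM at day 0 and 1.4, 7.37 and 13.1 CPM at day 7, with a log2 fold change of -3.77 (SE 0.92, adjusted p = 0.0333). Hairpin 2753 read 32.1, 21.8 and 12.5 CPM at day 0 and 0, 0 and 0 CPM at day 7, that is, at least 34.9-fold lower at day 7 where the floor is set to 3 counts a library. Hairpin 2753 passed the filter only through its day 0 libraries, as did 6 others that were all called depleted, so its call is no support and it is given as a description. Hairpin 161 kept its call without any 1 library. Hairpin 162 did not pass without day 0 B or C or day 7 A or B or C, with an adjusted p of up to 0.119. One further hairpin, 2754, was absent from all day 0 libraries, read 17.3, 36.0 and 0 CPM at day 7 and was not tested, being in only 2 libraries. In the 2i libraries hairpin 161 was at 0 in all but 2i GFP- A, where it stood at 32.5 CPM.

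Of 710 genes with at least 2 tested hairpins, 6 (0.845%) had 2 or more depleted hairpins. Rack1, Csnk1a1 and Csnk2a1 are described above, and the other 3 were Cdk16 (PCTK1 in the table), Plaur and BC032265. Cdk16, a cyclin-dependent kinase partnered by cyclin Y, had an abundant depleted hairpin, 643, at 3205, 3430.5 and 2823 CPM at day 0 and 1589, 1568 and 1542 CPM at day 7, with a log2 fold change of -1.01 (SE 0.10, adjusted p = 0.00116). Its change is small but the libraries were tight, and it fell under the fold limit, to -0.95 at the least, without day 0 A or B. Hairpin 646 of Cdk16 read 499, 405 and 407 CPM at day 0 and 161, 178 and 190.2 CPM at day 7, with a log2 fold change of -1.31 (SE 0.21, adjusted p = 0.00697), hairpin 645 changed by -0.80 (SE 0.12, adjusted p = 0.00525), under the fold limit, and the other hairpins, 644 and 642, by 0.28 and 0.10, neither past the test. Plaur, the receptor for urokinase at the cell surface, had hairpin 3373 at 1513, 1356 and 1282 CPM at day 0 and 586, 426 and 538 CPM at day 7. Hairpin 3376 stood at 637, 811 and 679.7 CPM at day 0 and 252, 350.0 and 254 CPM at day 7. The day 0 libraries lay above the day 7 libraries in both, with log2 fold changes of -1.42 (SE 0.15, adjusted p = 0.00167) and -1.31 (SE 0.20, adjusted p = 0.0059), and kept the call without any 1 library. Its other 3 hairpins had log2 fold changes of -0.61 to -0.20 and did not pass. BC032265 is given under the table's symbol. Its hairpin 2216 read 858, 969 and 601 CPM at day 0 and 418, 340.3 and 322 CPM at day 7, with a log2 fold change of -1.17 (SE 0.21, adjusted p = 0.0116). Hairpin 2215 read 73.2, 73.2 and 115 CPM at day 0 and 10.8, 13.3 and 9.68 CPM at day 7, with a log2 fold change of -2.95 (SE 0.69, adjusted p = 0.0293). Hairpin 2217 was higher at day 7, with a log2 fold change of 0.98 (SE 0.18, adjusted p = 0.0119), under the fold limit. Hairpin 2216 did not pass without day 7 B or C (adjusted p up to 0.0615) and hairpin 2215 without day 0 C or day 7 A or B or C (up to 0.119). The number of such genes is sensitive to the fit, at 3 without any 1 of the day 7 libraries, 15 with total count scaling and 16 with edgeR's exact test, the test that the study names.

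The other depleted hairpins with the smallest p each stood alone in their gene. Hairpin 688 of Mapk12, the p38 gamma kinase of the stress pathway, read 1859, 1577 and 1762 CPM at day 0 and 638, 570.3 and 617 CPM at day 7, with a log2 fold change of -1.51 (SE 0.12, adjusted p = 0.000703). Hairpin 1565 of Mapkapk2, a kinase of p38 signalling, read 801, 871 and 643 CPM at day 0 and 142, 83.2 and 136 CPM at day 7, with a log2 fold change of -2.68 (SE 0.26, adjusted p = 0.00113). The 3 other tested hairpins of Mapk12 did not pass, at log2 fold changes of -0.30 to 0.16. No other Mapkapk2 hairpin was called, and the median over its 5 was -0.13. Hairpin 131 of Ern2, a sensor of unfolded protein in the endoplasmic reticulum known from gut epithelium, read 2326, 1833 and 2354 CPM at day 0 and 818, 809 and 809.7 CPM at day 7, so that the day 7 libraries agreed within 10 CPM, with a log2 fold change of -1.42 (SE 0.12, adjusted p = 0.000787). Hairpin 3056 of Pi4ka, which makes phosphatidylinositol 4-phosphate at the plasma membrane, read 307, 317 and 213 CPM at day 0 and 6.55, 5.05 and 2.09 CPM at day 7. It was nearly gone at day 7 in all 3 libraries, with a log2 fold change of -5.93 (SE 0.54, adjusted p = 0.000787). Hairpin 1419 of Dclk1, a doublecortin-like kinase that binds microtubules and is known from neurons, read 723, 548 and 631 CPM at day 0 and 133, 94.3 and 108 CPM at day 7, with a log2 fold change of -2.50 (SE 0.22, adjusted p = 0.000787). Hairpin 3428 of Krt8, a keratin filament of simple epithelia and no kinase, read 1807, 1734 and 1204 CPM at day 0 and 504, 420.3 and 429 CPM at day 7, with a log2 fold change of -1.81 (SE 0.18, adjusted p = 0.00116). These 6 hairpins kept the call whichever library was left out.

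Hairpins absent from one day are shown apart, since their fold is only a bound. At day 7, 97 hairpins had no count in any library but some at day 0, most of them rare, with a median of 122 counts summed over the day 0 libraries. The highest sum belonged to hairpin 2316 of Itpkc, an inositol trisphosphate kinase, at 55.0, 63.3 and 156 CPM at day 0, and the next highest among the tested ones to hairpin 3379 of Strap, a partner of TGF-beta receptors, at 36.7, 94.0 and 51.7 CPM. With a floor of 3 counts a library, they were at least 144-fold and 95.9-fold lower at day 7. Hairpins 1518 of Sik2 and 533 of Prkca were also at 0 in all day 7 libraries, but each was at 0 in 1 day 0 library and was not tested. In the other direction, 82 hairpins were absent from all day 0 libraries and present at day 7, with a median of 63 counts summed over the day 7 libraries. Hairpin 2071 of Map2k2, that is MEK2, the kinase above ERK, went from 0 to 136, 72.2 and 79.0 CPM, at least 135-fold, and hairpin 2504 of Pakap (AKAP2 in the table), an anchoring protein of protein kinase A, from 0 to 126, 67.8 and 30.8 CPM, at least 106-fold. Hairpins 2453 of Stk35, 866 of Abl1 and 5 of Ern1 followed, with day 7 means of 34.7, 35.2 and 26.5 CPM. Beside these stand the 411 hairpins that 1 or 2 of the day 0 libraries missed, and whether the absent hairpins were in the pool at day 0 was not tested. Of the enriched hairpins, 15 were at 0 in all day 0 libraries, and of the depleted ones, 6 were at 0 in all day 7 libraries. The filter kept 27 hairpins only through their day 7 libraries, 17 of them enriched, and 7 only through day 0, all 7 depleted, so that a call among them follows from the filter and the values of the hairpins absent from one day are given with no test.

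Among enriched hairpins, the smallest p belonged to 1 of 5 hairpins of Nme6, a member of the nucleoside diphosphate kinase family. Hairpin 2236 read 834, 800.0 and 809.9 CPM in day 0 A, B and C and 2443, 2295 and 2677 CPM in day 7 A, B and C. The day 7 libraries lay far above the day 0 libraries, which differed little among themselves, with a log2 fold change of 1.60 (SE 0.10, adjusted p = 0.000307). The other Nme6 hairpins had log2 fold changes of -2.90 to 0.53 and did not pass. Hairpin 1463 of Trib2, a pseudokinase that serves as an adaptor for protein degradation, read 403, 451 and 380.0 CPM at day 0 and 1231, 1234 and 1219.8 CPM at day 7, with a log2 fold change of 1.58 (SE 0.13, adjusted p = 0.000743). Hairpin 748 of Mapk6, that is ERK3, an unstable relative of the ERK kinases, read 136, 168 and 127 CPM at day 0 and 662, 587 and 651 CPM at day 7, with a log2 fold change of 2.14 (SE 0.20, adjusted p = 0.000875). Hairpin 29 of Cdk5, a kinase known for its work in neurons, started rare and read 28.1, 47.0 and 52.0 CPM at day 0 and 313, 340.1 and 267 CPM at day 7. It had the largest change among the 12 enriched hairpins with the smallest p, with a log2 fold change of 2.85 (SE 0.35, adjusted p = 0.00282). Hairpin 791 of Cdk14 (PFTK1 in the table), like Cdk16 a partner of cyclin Y, read 670.3, 602 and 789 CPM at day 0 and 1655, 1747 and 1625 CPM at day 7, with a log2 fold change of 1.29 (SE 0.13, adjusted p = 0.00123). Hairpin 2908 of Kcnh2, the pore subunit of a voltage-gated potassium channel, read 596, 519 and 417 CPM at day 0 and 1317, 1632 and 1632 CPM at day 7, with a log2 fold change of 1.58 (SE 0.17, adjusted p = 0.00153). Each of these 6 was higher in every day 7 library than in any day 0 library and kept its call whichever library was left out.

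The other 6 of the 12 enriched hairpins with the smallest p were against receptors, kinases and an actin-binding protein. Hairpin 331 of Bmpr1a, the type I receptor through which BMP acts on these cells, read 599, 508 and 628 CPM at day 0 and 1349, 1318 and 1666 CPM at day 7, with a log2 fold change of 1.32 (SE 0.15, adjusted p = 0.00184). Hairpin 2882 of Ephb2, a receptor for membrane-bound ephrins, read 356, 225 and 356 CPM at day 0 and 967, 1031 and 1166 CPM at day 7, with a log2 fold change of 1.75 (SE 0.21, adjusted p = 0.00231). Hairpin 1120 of Tec, a tyrosine kinase of blood cells, read 491, 429 and 358 CPM at day 0 and 979, 1237 and 1546 CPM at day 7, the day 7 libraries differing more among themselves than those of Ephb2, with a log2 fold change of 1.56 (SE 0.20, adjusted p = 0.00354). The group also held hairpin 428 of Rps6ka4, a kinase of histone H3 below ERK and p38, which read 459, 405 and 429.6 CPM at day 0 and 932, 962 and 828 CPM at day 7. It changed by 1.07 (SE 0.14, adjusted p = 0.00354) on the log2 scale, close to the fold limit, and with total count scaling it was not called. Hairpin 1249 of Twf1, the actin-binding protein twinfilin and the only tested hairpin of its gene, read 987, 683 and 857 CPM at day 0 and 2034, 2005 and 2302 CPM at day 7, with a log2 fold change of 1.33 (SE 0.15, adjusted p = 0.00203). Hairpin 2968 of Nags read 244, 215 and 279 CPM at day 0 and 752, 732 and 578 CPM at day 7, with a log2 fold change of 1.48 (SE 0.19, adjusted p = 0.00354). Apart from that of Rps6ka4 with total count scaling, these calls held under every scaling and without any 1 library.

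Of the 710 genes, 7 (0.986%) had 2 or more enriched hairpins. In Kcnh5, another voltage-gated potassium channel, all 5 hairpins had log2 fold changes over 0, with a median of 1.21. Hairpin 3142 read 24.4, 37.1 and 25.1 CPM at day 0 and 125, 83.2 and 154 CPM at day 7, with a log2 fold change of 2.07 (SE 0.52, adjusted p = 0.0375). Hairpin 3138 read 87.1, 191 and 78.7 CPM at day 0 and 293, 344 and 319 CPM at day 7, with a log2 fold change of 1.42 (SE 0.38, adjusted p = 0.043). Neither call held throughout, since 3142 did not pass without day 0 A or C or day 7 A or B or C (adjusted p up to 0.213) and 3138 without day 0 A or C or day 7 A or B or C (up to 0.151) and with total count scaling. Pikfyve (PIP5K3 in the table), which makes a phosphoinositide of endosomes, also had all 5 hairpins over 0. Hairpin 1966 read 215, 182 and 202 CPM at day 0 and 576, 501 and 475 CPM at day 7, with a log2 fold change of 1.37 (SE 0.19, adjusted p = 0.00493). Hairpin 1967 read 577, 677 and 594 CPM at day 0 and 1077, 1543 and 1420.2 CPM at day 7, with a log2 fold change of 1.13 (SE 0.16, adjusted p = 0.005), and both kept the call without any 1 library. Irak2, a kinase below Toll-like and interleukin 1 receptors, had hairpin 240 at 379, 234 and 225 CPM at day 0 and 655, 953 and 794 CPM at day 7. Hairpin 241 stood at 781, 448 and 582 CPM at day 0 and 1101, 1323 and 1264 CPM at day 7. Their log2 fold changes were 1.52 (SE 0.25, adjusted p = 0.00782) and 1.03 (SE 0.20, adjusted p = 0.0159), the latter lost without day 0 B or C or day 7 B or C (adjusted p up to 0.0697) and with 3 of the other scalings, while the third and most abundant, 242, changed by -0.19 and did not pass. In Camk2d, Mapk4 and Stk38 the hairpins parted. Camk2d, a calmodulin-dependent kinase, had hairpins 75 and 78 enriched at 1.19 and 1.01 and 3 others at -0.73 to -0.60 with no call. Mapk4, or ERK4, had 730 and 732 enriched at 1.45 and 1.26 and 728 depleted at -2.01, and Stk38, a kinase of the Hippo group, had 521 and 523 enriched at 1.22 and 1.54 and 524 depleted at -1.76. All 8 of these calls were lost without at least 1 day 7 library, with adjusted p of up to 0.153. Those of 78, 730, 732, 521 and 524 were also lost without at least 1 day 0 library. Hairpins 730 and 78 were also lost with each of the 4 other scalings. Csnk1g2, described with casein kinase 1, completes the 7. Total count scaling gave 2 genes with 2 or more enriched hairpins, and without day 7 A, B or C there were 2, 1 and 1, against 15 without day 0 B.

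Hairpins against 1 gene often disagreed. Over the 710 genes the median distance between the lowest and the highest log2 fold change within a gene was 1.96. In 11 genes, among them Ephb2, Ippk, Kcnh2, Mapk4, Mapk6, Nucks1, Pdgfrb, Per3, Pik3r2 and Stk38, at least 1 hairpin was depleted and another enriched. Kcnh2 shows this with hairpin 2907 at 179.6, 117 and 136 CPM at day 0 and 27.8, 30.3 and 32.7 CPM at day 7, with a log2 fold change of -2.25 (SE 0.45, adjusted p = 0.0159), beside the enriched hairpin 2908. In genes with a depleted hairpin, the hairpins not called depleted had a median log2 fold change of 0.04. In genes with an enriched one, those not called enriched also had 0.04, against -0.02 over all hairpins. Both sets still hold hairpins called the other way. Whether the called or the uncalled hairpins lowered their targets was not measured in these libraries.

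Counts summed over all hairpins of a gene gave 77 genes lower, 10.6% of 729 tested, and 50 higher, 6.86%, where the adjusted p was under 0.05 and the change went beyond 0.5 on the log2 scale in either direction. A sum follows the most abundant hairpins of its gene. Csnk2b led with 3504, 2798 and 3049 CPM at day 0 and 517, 521 and 542 CPM at day 7, with a log2 fold change of -2.57 (SE 0.12, adjusted p = 1.55e-10), most of it from hairpin 1932. Csnk1a1 followed with 3521, 3023 and 2389 CPM at day 0 and 627, 634 and 759.8 CPM at day 7, with a log2 fold change of -2.14 (SE 0.14, adjusted p = 2e-08), from 3 hairpins. Ripk2, the kinase below NOD receptors of innate immunity, read 4947, 4964 and 5206 CPM at day 0 and 2776, 3145 and 2864 CPM at day 7, with a log2 fold change of -0.78 (SE 0.08, adjusted p = 4.05e-06). All 5 of its hairpins were lower at day 7, at -1.04 to -0.49, and 1 of them, 226, was called. The next were Mapk12 with a log2 fold change of -1.02 (SE 0.11, adjusted p = 9.55e-06), Plaur with a log2 fold change of -0.80 (SE 0.09, adjusted p = 9.99e-06) and Cdk16 with a log2 fold change of -0.53 (SE 0.07, adjusted p = 3.77e-05), the last under the fold limit without day 0 A or without day 7 C. Rack1 had a log2 fold change of -3.28 (SE 0.43, adjusted p = 4.95e-05). The genes higher by the smallest p were Twf1 with 1021, 703 and 874 CPM at day 0 and 1968, 1955 and 2249 CPM at day 7, with a log2 fold change of 1.25 (SE 0.14, adjusted p = 1.97e-05), then Kcnh2 with a log2 fold change of 0.73 (SE 0.09, adjusted p = 2.21e-05), Cdk14 with a log2 fold change of 1.12 (SE 0.14, adjusted p = 4.28e-05) and Nme6 with a log2 fold change of 0.77 (SE 0.10, adjusted p = 4.28e-05). Sik2, a salt-inducible kinase, and Ttbk2, a kinase of tubulin and of cilium formation, came next, without a called hairpin. Both tested Sik2 hairpins, 1521 and 1522, were higher at day 7, though not past the fold limit, at 0.90 (SE 0.10, adjusted p = 0.00167) and 0.60 (SE 0.16, adjusted p = 0.0422). In Ttbk2 hairpin 1227 was higher, with a log2 fold change of 0.97 (SE 0.11, adjusted p = 0.00203), and the other 4 had log2 fold changes under 0. Their sums had a log2 fold change of 0.66 (SE 0.08, adjusted p = 4.43e-05) and a log2 fold change of 0.72 (SE 0.10, adjusted p = 6.94e-05). Where each hairpin of a gene counted alike, in a limma fit of the mean log2 CPM, 6 genes were lower and 17 higher, and of the 12 named here Csnk1a1 and Twf1 were left. Without day 7 A, B or C the sums gave 48, 40 and 38 genes lower and 38, 35 and 33 higher.

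Kinases of the cell cycle were read against the 4.00% of all tested hairpins that were depleted and the 3.43% that were enriched. Of 59 tested hairpins against mitotic kinases and the spindle checkpoint, 2 were depleted and 2 enriched (3.39% each), with a median log2 fold change of -0.17. Hairpin 194 of Bub1b, a checkpoint protein that holds cells until chromosomes are attached, fell from 611 ± 107 to 128 ± 42.1 CPM (SD, n = 3), with a log2 fold change of -2.26 (SE 0.30, adjusted p = 0.00397). Hairpin 2429 of Pbk, a mitotic kinase, changed by -1.20 (SE 0.33, adjusted p = 0.0462) and hairpins 2559 of Plk2 and 547 of Mastl rose by 1.25 (SE 0.28, adjusted p = 0.0235) and 1.03 (SE 0.28, adjusted p = 0.0446). The calls for Pbk, Plk2 and Mastl were lost without any 1 of the day 7 libraries, with adjusted p of up to 0.165, 0.094 and 0.164, and that for Mastl with 3 of the other scalings. Those for Pbk and Mastl were also lost without day 0 A or B. On summed counts 3 of 15 genes were lower, against 10.6% of all genes, and none was higher, against 6.86%. These were Bub1b at -0.64 (adjusted p = 0.000444), its partner Bub1 at -0.72 (adjusted p = 0.00135) and Cdc7, which fires replication origins, at -1.31 (adjusted p = 0.00139). The 4 hairpins of Plk1, the main kinase of mitotic entry, had a median of -1.24 and a sum that changed by -0.39 (adjusted p = 0.54). Of 93 hairpins against cyclin-dependent kinases and their partners, 6 were depleted (6.45%) and 3 enriched (3.23%), with a median of -0.07. Summed counts were lower for 2 of the 23 tested genes of this list and higher for 4, against 10.6% and 6.86% of all genes. Cdk1 and Cdk2, which drive mitosis and DNA replication, had no called hairpin, with sums that changed by 0.17 (adjusted p = 0.322) and 0.33 (adjusted p = 0.0417), and the calls named for the list are those of Cdk16, Cdk5 and Cdk14. Inhibitors of the cell cycle gave 1 call each way among 32 hairpins. Hairpin 2994 of Cdkn2a, the locus of the p16 and p19 growth brakes, rose from 332 ± 23.7 to 715 ± 94.6 CPM (SD, n = 3), with a log2 fold change of 1.11 (SE 0.17, adjusted p = 0.0059), a call lost with total count scaling, and hairpin 2729 of Cdkn1a, the p21 inhibitor, changed by -3.09 (SE 0.80, adjusted p = 0.0397), a call lost without day 0 A or C or day 7 A or B or C (adjusted p up to 0.126). Of 34 hairpins against DNA damage and replication stress kinases only 158 of Chek2 was called, falling from 530.2 ± 73.2 to 194 ± 31.9 CPM (SD, n = 3), with a log2 fold change of -1.45 (SE 0.22, adjusted p = 0.00571). The counts of Chek1, the replication checkpoint kinase, changed as a sum by a log2 fold change of -0.58 (adjusted p = 0.000483) with no hairpin called.

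The list of kinases of ribosome production, transcription and splicing had the second highest share of depleted hairpins among the 16 lists, after GSK3 and casein kinase 1. Of its 56 tested hairpins 7 were depleted (12.5%, against 4.00% of all) and 1 was enriched (1.79%, against 3.43%), and 43 of 56 had a log2 fold change under 0, with a median of -0.45. Of the 7, 4 belong to casein kinase 2, described above, and the hairpins of this list too were not compared with others of like abundance. Hairpin 1294 of Riok2, an atypical kinase that matures the small ribosomal subunit, fell from 1180.2 ± 79.6 to 553 ± 79.3 CPM (SD, n = 3), with a log2 fold change of -1.09 (SE 0.14, adjusted p = 0.00397), in every fit that left out 1 library. The enriched hairpin was 717 of Srpk2, a kinase of splicing factors, from 352 ± 41.0 to 792 ± 78.5 CPM (SD, n = 3), with a log2 fold change of 1.17 (SE 0.16, adjusted p = 0.00473). On sums, where 10.6% of all genes were lower, 5 of 15 genes were lower, namely Csnk2b, Csnk2a1, Riok2 at -0.62 (adjusted p = 0.000155), Srpk1 at -2.45 (adjusted p = 0.0182) with 1 tested hairpin and the transcription factor Brd2 at -0.60 (adjusted p = 0.0391). Srpk2 was higher at 0.59 (adjusted p = 0.00569).

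Growth factor pathways gave scattered calls in both directions. Of 87 hairpins against PI3K, AKT and mTOR signalling, which couples nutrients and growth factors to growth, 4 were depleted (4.60%) and 3 enriched (3.45%), 1 of these kept by the filter only through day 7, with a median of -0.04. Hairpins 1720 of Pik3c2g and 1956 of Pik3r2 changed by -1.88 (SE 0.32, adjusted p = 0.00893) and -1.10 (SE 0.23, adjusted p = 0.0201), and hairpin 1322 of Mtor itself rose by 1.58 (SE 0.34, adjusted p = 0.0209). These 3 calls were lost without day 7 A or C for Pik3c2g, day 7 A or C for Pik3r2 and day 7 A or B or C for Mtor, with adjusted p of up to 0.0506, 0.0918 and 0.103. The LKB1, AMPK and Hippo genes, known as brakes on growth, gave 3 depleted (4.55%) and 5 enriched (7.58%) of 66 hairpins, with a median of -0.12. They include the Stk38 hairpins, hairpin 2135 of Stk4, the Hippo kinase MST1, which rose by 1.10 (SE 0.23, adjusted p = 0.0201), and hairpin 392 of Lats2, absent from day 0, kept by the filter only through day 7 and at 18.3 ± 6.82 CPM at day 7 (SD, n = 3). The Stk4 call was lost without day 7 A or B or C (adjusted p up to 0.105) and with total count scaling. In sums, Stk3, Stk38l and Prkag3 of 15 genes were lower and none was higher, against 10.6% and 6.86% of all genes.

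Pathways that decide between self-renewal and differentiation were read in the same way. LIF-JAK signalling had 28 tested hairpins, 2 depleted (7.14%) and none enriched, with a median of -0.08. Hairpin 811 of Jak1, the kinase bound to the LIF receptor complex, read 97.4, 86.7 and 53.3 CPM at day 0 and 0, 1.47 and 0.19 CPM at day 7, with a log2 fold change of -7.08 (SE 1.47, adjusted p = 0.0191). It was at or near 0 in every day 7 library, and the call was lost without day 7 A or C (adjusted p up to 0.0779). The other 2 tested Jak1 hairpins had log2 fold changes of -0.40 and -0.20 and were not called, and the sums of Jak1 and Jak2 changed by -2.27 (adjusted p = 0.00867) and -0.74 (adjusted p = 0.0332). Hairpin 1110 of Lyn, a Src family kinase, read 106, 454 and 231 CPM at day 0 and 40.0, 30.5 and 21.6 CPM at day 7, with day 0 libraries that differed widely, with a log2 fold change of -3.10 (SE 0.57, adjusted p = 0.0125), lost without day 7 B or C (adjusted p up to 0.0619). The FGF-ERK cascade, which primes the cells to differentiate, had 2 depleted (2.86%) and 3 enriched (4.29%) of 70 hairpins, and a median of 0.16. Hairpin 318 of Araf, a RAF kinase above MEK, rose from 388 ± 97.5 to 1013 ± 83.3 CPM (SD, n = 3), with a log2 fold change of 1.38 (SE 0.20, adjusted p = 0.005). The 3 include the Map2k2 hairpin absent at day 0, which passed the filter only through day 7. Hairpin 394 of Rps6ka2, a kinase that ERK activates, changed by -1.78 (SE 0.31, adjusted p = 0.00978), lost without day 7 A or C (adjusted p up to 0.0532). Of the 13 tested hairpins against the 4 FGF receptors 1 was depleted, against 4.00% of all tested hairpins. Among BMP, activin and TGF-beta receptors 3 of 53 hairpins were depleted (5.66%) and 2 enriched (3.77%), with a median of 0.10. Hairpin 334 of Tgfbr2 read 514, 630.2 and 583 CPM at day 0 and 70.4, 134 and 75 CPM at day 7, with a log2 fold change of -2.63 (SE 0.30, adjusted p = 0.00203). Its call and that of the enriched Bmpr1a hairpin stood without any 1 library, but each was the only call of its gene. The other hairpins had log2 fold changes of -0.69 to 0.50 for Tgfbr2 and -4.98 to 0.43 for Bmpr1a. The medians over all hairpins of these genes were 0.17 and -0.01. Hairpin 223 of Tgfbr1, the partner of Tgfbr2, rose by 1.22 (SE 0.22, adjusted p = 0.0119) and hairpin 360 of Acvr2a, an activin receptor, changed by -2.20 (SE 0.40, adjusted p = 0.0119), lost without day 7 A or C and day 7 B or C (adjusted p up to 0.0742 and 0.0552). On sums, of 11 genes, Acvr2a was lower, and Bmpr1a, Bmpr1b and Acvr1b were higher, against 10.6% and 6.86% of all genes.

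Metabolic kinases gave calls both ways. Of 64 hairpins against kinases of glycolysis and hexoses, 2 were depleted (3.12%) and 5 enriched (7.81%), 1 of these kept by the filter only through day 7, with a median of 0.12. Phosphofructokinase, the committed step of glycolysis, had 1 enriched hairpin in each of its 3 genes among 13 tested, against 3.43% of all tested hairpins, and was chosen for description after its values were seen. Hairpin 91 of Pfkl, the liver form, read 198, 275 and 349.6 CPM at day 0 and 714, 723 and 774 CPM at day 7, with a log2 fold change of 1.43 (SE 0.22, adjusted p = 0.0064). Hairpin 87 of Pfkm, the muscle form, read 624, 655 and 739 CPM at day 0 and 1291, 1548 and 1212 CPM at day 7, with a log2 fold change of 1.01 (SE 0.14, adjusted p = 0.00461). Hairpin 2398 of Pfkp, the platelet form, read 15.6, 27.6 and 37.9 CPM at day 0 and 98.4, 145 and 136 CPM at day 7, with a log2 fold change of 2.22 (SE 0.54, adjusted p = 0.0334). The Pfkl hairpin kept its call in every fit that left out 1 library, that of Pfkm lay at the fold limit and fell under it without day 0 A or B or day 7 B and with each of the 4 other scalings, and that of Pfkp did not pass without day 7 A or B or C (adjusted p up to 0.161). Of the 13 hairpins, 5 had a log2 fold change under 0, and the median was 0.66. Hairpin 95 of Hk2, hexokinase 2, changed by -1.32 (SE 0.31, adjusted p = 0.0295), lost without day 0 B or day 7 A or B or C (adjusted p up to 0.117). Of 107 hairpins against nucleotide synthesis and salvage, 7 were depleted (6.54%) and 4 enriched (3.74%), with a median of 0.14. Hairpin 2354 of Tk2, the mitochondrial thymidine kinase, read 294, 279 and 189.6 CPM at day 0 and 60.5, 37.5 and 50.1 CPM at day 7, with a log2 fold change of -2.36 (SE 0.36, adjusted p = 0.0059), and hairpin 1733 of Nme7 changed by -1.47 (SE 0.27, adjusted p = 0.0119), lost without day 7 A or C (adjusted p up to 0.0619). The nucleoside diphosphate kinases, which balance nucleoside triphosphates, thus held calls both ways, 2 depleted and 2 enriched of 33 hairpins in 8 genes. Over all tested hairpins the shares were 4.00% and 3.43%.

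Kinases known from other cell types were read beside these. Tyrosine kinases of lymphoid and myeloid cells had no depleted and 1 enriched (2.22%, the Tec hairpin) of 45 hairpins, with a median of 0.19. Kinases of nerve, muscle and sense organs had 3 depleted (4.35%) and 1 enriched (1.45%) of 69, with a median of -0.04. Beside that of Dclk1, these were hairpin 73 of Camk2b, -2.25 (SE 0.43, adjusted p = 0.0137), hairpin 1128 of Musk, the kinase of the nerve-muscle synapse, -1.49 (SE 0.35, adjusted p = 0.0292), and hairpin 1145 of Ntrk2, a neurotrophin receptor, 1.34 (SE 0.29, adjusted p = 0.0217). The last 3 were lost without day 7 A or C for Camk2b, day 0 C or day 7 A or B or C for Musk and day 7 A or B or C for Ntrk2, with adjusted p of up to 0.0667, 0.124 and 0.0933. Whether the cells expressed these genes was not measured here.

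The remaining hairpins of the genes with known sequences show how far hairpins to 1 gene can part. In Prpsap2, hairpin 2946 read 299.6, 360.2 and 203 CPM at day 0 and 65.0, 40.6 and 27.9 CPM at day 7, with a log2 fold change of -2.69 (SE 0.42, adjusted p = 0.0066), and kept its call without any 1 library. Hairpin 2949 read 28.8, 52.3 and 17.3 CPM at day 0 and 3.51, 0.842 and 0.759 CPM at day 7 and did not pass, with a log2 fold change of -4.25 (SE 1.36, adjusted p = 0.0753), and hairpin 2947 rose from 203 ± 44.2 to 381 ± 58.2 CPM (SD, n = 3), by 0.91 (SE 0.25, adjusted p = 0.048), under the fold limit. Hairpins 2948 and 2945 had log2 fold changes of 0.89 and 1.68 with no call, and the sum of the gene had a log2 fold change of -0.12 (SE 0.20, adjusted p = 0.691). In Nags, the enriched hairpin 2968 held most of the counts at day 7, and the others had log2 fold changes of -1.05 to 0.55 with no call, while the sum rose with a log2 fold change of 0.88 (SE 0.19, adjusted p = 0.0028). Sephs2, which makes the selenium donor for selenoproteins, had no called hairpin, with log2 fold changes of -1.54 to 0.18 and a sum with a log2 fold change of -0.24 (SE 0.15, adjusted p = 0.269). Its hairpin 2953 read 40.4, 52.3 and 53.9 CPM at day 0 and 48.6, 48.4 and 48.2 CPM at day 7, with overlapping groups, and stood at 3738, 3581 and 3709 CPM in the 2i GFP+ libraries. Of the 20 hairpins of these 4 genes 2 were depleted and 1 was enriched, against 4.00% and 3.43% of all tested hairpins.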

How the data were processed

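Integrated hairpins were measured by sequencing PCR products of genomic DNA from 3 Serum/LIF day 0 and 3 Serum/LIF day 7 libraries. The deposited table holds raw counts of reads per hairpin, with no normalization, which the authors made by aligning reads with Bowtie2 and counting them with a script. No molecular identifiers are mentioned in the sources used here, so that counts are of reads, not of cells. No deposited column was left out for want of a sample. Gene symbols were taken from the hairpin names after the number, and 660 matched RefSeq symbols, 66 synonyms and 6 none.

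Counts were tested in R 4.3.3 with edgeR 4.0.16 (TMM scaling, glmQLFit and glmQLFTest) on these 6 libraries, without covariates, for those hairpins that reached 0.5 CPM in 3 or more of them, with Benjamini-Hochberg adjustment over all of them. CPM carries the TMM factors. SE is the log2 fold change over the root of F. Gene sums were tested likewise with a log2 limit of 0.5. Steps were tested on simulated data. Other scalings, filters, edgeR's exact test, DESeq2 1.42.0, limma 3.58.1, a replicate block and left-out libraries were tried, and limma voom with group weights and hairpins with a count in all 6 libraries were chosen after seeing the data.

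The hairpins, lists and tests were chosen with earlier results of these data known. The text names the 12 depleted and 12 enriched hairpins with the smallest p, up to 5 absent hairpins per day, genes with 2 or more calls in 1 direction, up to 4 called hairpins per list, the 6 lowest and 6 highest gene sums and the genes with sequences. Families, list genes named on their sums, genes with calls in both directions and other members of named genes' families were chosen after their values were seen. RefSeq gave the chromosomes, and hairpin sequences came from the study's supplement.

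Some genes of the lists are not reported here.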

Additional observations from a re-analysis of the deposited data

Results flagged for a closer look

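Of 12 hairpins with no count in any of the 6 Serum/LIF libraries, 10 had more than 3 counts in at least 1 of the 2i libraries, a signal in libraries that the comparison does not use. The highest was 128 counts, for hairpin 940 of Egfr, the receptor of epidermal growth factor, in 2i GFP- B, and it was at 0 in the other 5 sorted libraries.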

How the results depend on the processing

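None of the 91 called hairpins that the naming rule picks changed sign under an alternative that was run. The balance of the calls did turn, from more depleted to more enriched, without a fold limit, without day 0 B (127, 143), without day 0 C (112, 134) and with all 4 groups in 1 fit. The 121 depleted and 104 enriched hairpins became 72 and 63 with the replicate letter as a replicate block, and 72 of these 72 and 61 of these 63 were among the calls without it. The deviations of day 0 and day 7 libraries of 1 letter correlated at 0.00621, 0.00106 and -0.02334. These values do not settle whether the letters paired the libraries, since the day 0 libraries differed widely among themselves. With the block, 3 genes had 2 or more depleted hairpins. With all 4 groups in 1 fit, 4 hairpins were depleted and 11 enriched, and 0 genes had 2 or more calls in either direction. At an adjusted p under 0.01 the counts were 48 and 39 hairpins, 3 and 1 genes with 2 or more calls and 37 lower and 31 higher gene sums. Without a fold limit they were 177 depleted and 227 enriched hairpins, 20 and 35 genes with 2 or more depleted or enriched hairpins and 100 higher sums. DESeq2 gave 310 depleted hairpins and 50 genes with 2 or more. The exact test with total count scaling and no filter gave 226 and 30, and with TMM 16 genes with 2 or more depleted and 11 with 2 or more enriched hairpins. Genes with 2 or more depleted hairpins (6) numbered 11 with RLE, 10 with TMMwsp, 11 with upper quartile, 15 with total count scaling and 11 with a filter at 10 CPM, and genes with 2 or more enriched hairpins (7) numbered 4, 3 and 2 with RLE, upper quartile and total count scaling. Hairpins with a count in all 6 libraries gave 212 depleted and 26 genes, and limma voom with group weights 186 and 21, both chosen after seeing the data. On the mean log2 CPM over hairpins 6 genes were lower and 17 higher. Leaving out 1 library gave 54 to 135 depleted and 37 to 143 enriched hairpins (52 to 142 and 37 to 142 where the hairpins tested stayed the same, with 68 and 43 without day 7 B), 2 to 8 and 1 to 15 genes with 2 or more, and 38 to 79 lower and 33 to 60 higher sums. The lowest counts came from leaving out a day 7 library, and the cause was not tested. Of the 91 called hairpins, 50 kept the call in every fit without 1 library that tested them. Among the 50 were hairpins 2071 of Map2k2, 2316 of Itpkc, 2453 of Stk35 and 2504 of Pakap. Hairpins 3379 of Strap, 392 of Lats2, 5 of Ern1 and 866 of Abl1 were also among them. All of those named were tested in only 3 of the 6 such fits. The filter dropped them where a library of the only day that held them was left out.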
